A study of Mus musculus with 6 samples.

Results

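Caveolins and cavins are the proteins from which caveolae are built, and the 6 mouse genes examined here were the caveolins Cav1 and Cav2, the cavins Cavin1, Cavin2 and Cavin3, and Ehd2, a membrane-remodelling ATPase of the caveolar neck. They were chosen by name as the core coat and neck genes of caveolae in tissues other than striated muscle, out of 45777 genes listed in the deposited table, and all 6 passed the filter on low counts. RNA had been sequenced from 6 tumors of B16F10, a pigmented mouse melanoma cell line, with 3 tumors grown in the hind footpad and 3 in the skin of the flank. By the sample labels all hosts were Foxn1-/- mice, which lack a thymus, aged 8 weeks at both sites, and no drug or transgene distinguished the groups. The comparison asks how the expression of these genes differs between a site of the body that bears weight and one that does not.

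Caveolae are small flask-shaped pits of the plasma membrane. Caveolins are hairpin proteins embedded in the inner leaflet, cavins assemble on them from the cytosol as a peripheral coat, and the EHD2 ring at the neck holds the pit at the surface. The pits flatten when a membrane is stretched and so act as a reservoir of membrane, and they are abundant in endothelial cells, adipocytes, fibroblasts and smooth muscle. The labels describe RNA taken from excised tumors, while the study's methods speak of isolated tumor cells without saying how they were separated. The RNA was sequenced in bulk and held markers of several host cell types, so fewer cells of a type and less RNA per cell cannot be told apart.

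Each tumor gave between 46529649 and 66364366 counted reads. Values are given as CPM, read counts per 1000000 reads of a library after scaling between libraries, for comparing 1 gene between tumors, or as FPKM, in which the authors also divided by transcript length, for comparing genes with each other. Footpad replicate 2 held more RNA of skin and muscle than the other tumors, with keratinocyte markers summing to 426 CPM, against between 0.155 and 20.7 CPM in the other 5, and skeletal muscle markers summing to 1004 CPM, against at most 189.7 CPM.

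Cav1 and Cav2 are neighbours on chromosome 6 and are read from the same strand. In the mm10 assembly (GRCm38.p6) Cav2 occupies chr6:17281185-17289130 and Cav1 chr6:17306335-17341328, so that 17204 bases separate the end of Cav2 from the first start of Cav1, and their start sites lie 25150 bases apart. The 250 bases upstream of each RefSeq start are shown because the levels of these neighbours parted between the sites. They run 5′ to 3′ on the plus strand, and capitals mark the GC box, the letters GGGCGG or their reverse complement CCGCCC.
Cav1, chr6:17306085-17306334: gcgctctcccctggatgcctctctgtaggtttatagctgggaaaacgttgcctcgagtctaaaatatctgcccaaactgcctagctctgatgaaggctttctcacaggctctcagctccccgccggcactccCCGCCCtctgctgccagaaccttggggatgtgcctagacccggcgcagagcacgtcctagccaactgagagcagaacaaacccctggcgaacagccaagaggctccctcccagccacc
Cav2, chr6:17280935-17281184: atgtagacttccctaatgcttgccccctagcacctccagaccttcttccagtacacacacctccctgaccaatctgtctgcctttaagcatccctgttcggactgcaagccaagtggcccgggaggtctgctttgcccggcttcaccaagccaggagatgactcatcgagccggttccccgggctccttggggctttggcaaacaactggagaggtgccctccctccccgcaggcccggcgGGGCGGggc
Of the letters, 59.6% in the Cav1 window and 62.0% in the Cav2 window were G or C, against a median of 52.4% over 32851 windows upstream of RefSeq starts. The GC box lay 118 bases upstream of the Cav1 start and 9 bases upstream of the Cav2 start, and 32.7% of all windows held one. It also lay 7 bases upstream of the outermost Cavin1 start and 226 bases upstream of the Ehd2 start, and the Cavin2 window held none. This motif was picked after the sequences had been looked at. The TEAD motif, the letters GGAATG or CATTCC on either strand, is bound by the transcription factors through which YAP acts, and it occurred in neither window nor in those of Cavin2 and Ehd2. The Cavin1 window held 1 copy, 247 bases upstream of its outermost start, and 12.6% of all windows held at least 1. Another RefSeq start of Cav1 had neither motif in its window. Cavin3 had no window in the table.

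In footpad tumors 3 of the 6 genes rose, namely Cav1, Ehd2 and Cavin3, while Cav2, Cavin1 and Cavin2 did not pass the test, and none fell. Called genes were those with a change of at least 2-fold and a p under 0.05 in the quasi-likelihood test of edgeR, adjusted by the Benjamini-Hochberg method over 17210 genes. By that rule 2.89% of all genes tested were higher in the footpad and 0.872% lower. In the same 3 genes every footpad tumor lay above every flank tumor, which held for 17.5% of all genes, and in none of the 6 did every footpad tumor lie below, which held for 14.9%. The median log2 fold change of the 6 genes was 1.16, against -0.00425 over all genes tested. DESeq2 called the same 3 genes and 6.71% of all genes as higher. With the replicate number as a block, edgeR called 0 of the 6 genes and 0 of all 17210 genes.

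**Figure D1:**
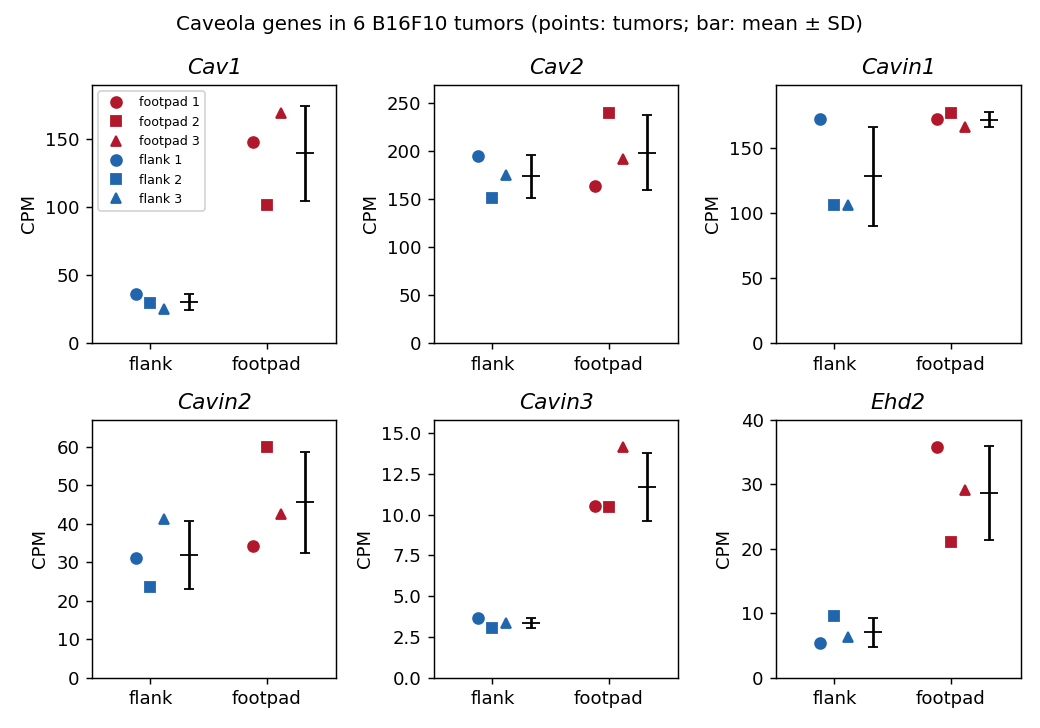
CPM of the 6 caveola genes, 1 panel per gene with its own linear vertical axis from 0, with 1 point per tumor and, beside the points, a bar for the mean ± SD of the 3 tumors of each site. In the panels of Cav1, Cavin3 and Ehd2 the points of the sites are separate, and in those of Cav2, Cavin1 and Cavin2 they overlap.

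Caveolin-1 is the structural caveolin without which non-muscle cells form no caveolae. Cav1 stood at 148 CPM in footpad replicate 1, 101 CPM in replicate 2 and 169 CPM in replicate 3, whereas the flank tumors, in the same order, held 36.2, 29.6 and 24.8 CPM. All footpad tumors exceeded all flank tumors. Footpad replicate 2, the tumor rich in skin and muscle RNA, was the lowest footpad tumor for Cav1. For Cav2, Cavin1 and Cavin2 the same tumor was the highest, and a link to that RNA was not tested. The mean was 139.5 ± 34.8 CPM in the footpad and 30.2 ± 5.70 CPM in the flank (SD, n = 3 each), a 4.62-fold rise. On the log2 scale the rise was 2.21 with a standard error of 0.23 and a 95% interval from 1.66 to 2.75 (adjusted p = 0.00984, edgeR), and it ranked 32 among all genes by p.

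Caveolin-2 joins hetero-oligomers with caveolin-1 and depends on it to leave the Golgi. The 3 footpad tumors, in replicate order, held Cav2 at 163, 239.7 and 191 CPM, and the 3 flank tumors held it at 195, 151 and 174 CPM. The sites overlapped, with flank replicate 1 above footpad replicates 1 and 3. The means were 198 ± 38.9 CPM in the footpad and 173 ± 22.0 CPM in the flank (SD, n = 3 each). The log2 fold change was 0.19 with a 95% interval from -0.23 to 0.62 (adjusted p = 0.545, edgeR). That interval lies wholly under the interval of Cav1.

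Cavin-1 is the cavin required for caveolae to form in all tissues, and the other cavins assemble with it in the coat. Cavin1, at chr11:100956736-100970617, had levels of 172, 177 and 166 CPM in footpad tumors in replicate order, whereas flank tumors had 172, 106 and 106 CPM. Flank replicate 1 lay at the level of the footpad tumors, and flank replicates 2 and 3 below all of them. The means were 171 ± 5.69 and 128 ± 37.9 CPM (SD, n = 3 each), and the log2 fold change of 0.42 had a 95% interval from -0.06 to 0.91 (adjusted p = 0.249, edgeR). Without flank replicate 1 the log2 fold change was 0.69 (adjusted p = 0.0435, edgeR), under the fold of 2 needed for a call.

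Cavin-2 binds phosphatidylserine and helps to curve the membrane. Cavin2, at chr1:51289126-51302960, was measured in replicate order at 34.3, 59.8 and 42.5 CPM in footpad tumors, with 31.1, 23.4 and 41.1 CPM in flank tumors. The sites overlapped because flank replicate 3 exceeded footpad replicate 1. The log2 fold change was 0.52 with a 95% interval from -0.10 to 1.13 (adjusted p = 0.268, edgeR).

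Cavin-3 links the cavin coat to protein kinase C delta, which it binds. Cavin3, at chr7:105480616-105482197, reached 10.5, 10.4 and 14.1 CPM in footpad tumors in replicate order, while flank tumors held 3.66, 3.06 and 3.34 CPM. The flank values lay close together, and all footpad tumors stood above them. The means were 11.7 ± 2.11 and 3.35 ± 0.297 CPM (SD, n = 3 each), a 3.49-fold rise, or 1.80 on the log2 scale with a standard error of 0.23 and a 95% interval from 1.28 to 2.33 (adjusted p = 0.0141, edgeR).

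EHD2 is the ATPase that oligomerizes around the neck and restrains caveolae from leaving the surface. Ehd2, at chr7:15946963-15967535, had 35.7, 21.1 and 29.1 CPM in footpad tumors in replicate order, compared with 5.36, 9.61 and 6.23 CPM in flank tumors. As with Cav1, footpad replicate 2 was the lowest of the footpad tumors, and it still exceeded every flank tumor. The means were 28.6 ± 7.33 and 7.07 ± 2.25 CPM (SD, n = 3 each), a 4.05-fold rise, or 2.02 on the log2 scale with a standard error of 0.29 and a 95% interval from 1.35 to 2.69 (adjusted p = 0.0174, edgeR).

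The calls of Cav1, Cavin3 and Ehd2 were lost when certain tumors were left out, while their fold changes changed little. Without footpad replicate 1, without footpad replicate 3 or without flank replicate 3, 0 of the 6 genes were called by edgeR. Calls fell over the whole table in these fits, to 26 of 17889, 0 of 17969 and 36 of 17876 genes higher, against 497 of 17210 with all tumors, and the fit with 0 calls had 1459 genes higher by at least 2-fold at an unadjusted p under 0.05. The log2 fold changes over all 6 omissions stayed between 2.04 and 2.39 for Cav1, between 1.64 and 1.87 for Cavin3 and between 1.82 and 2.30 for Ehd2.

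**Figure D2:**
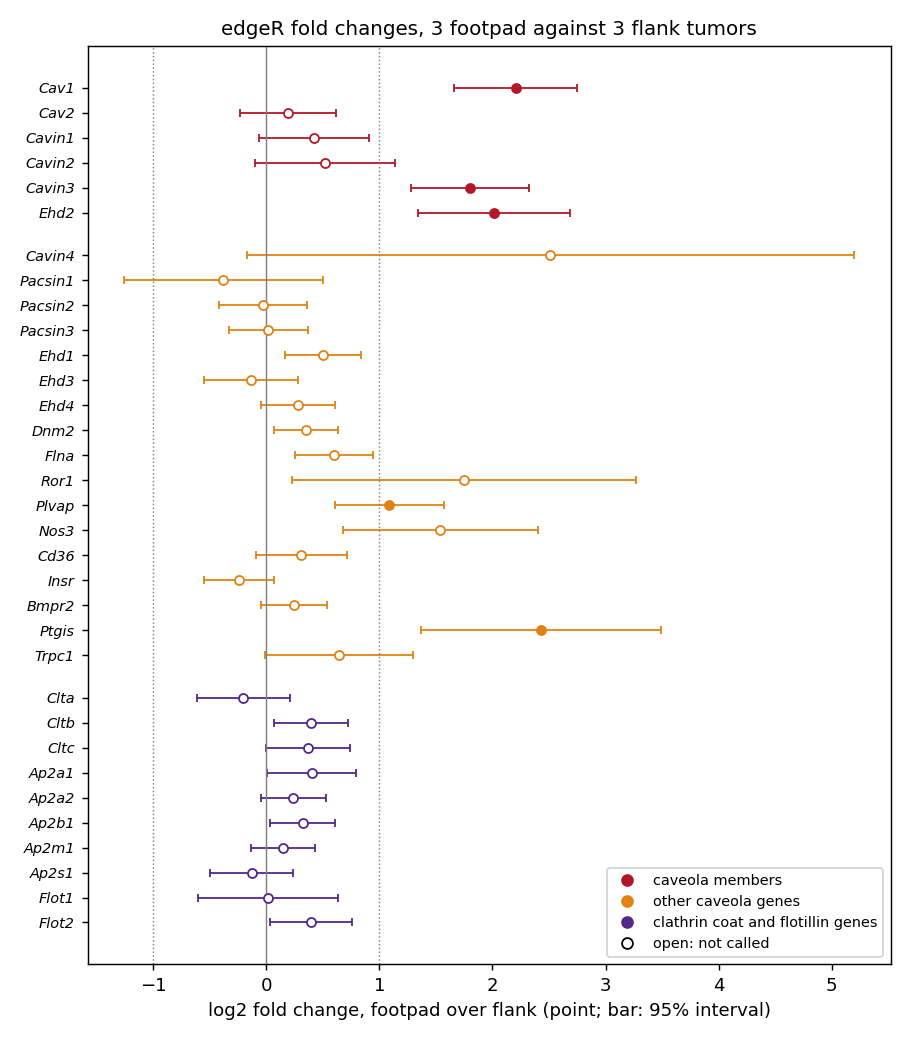
Log2 fold change of footpad over flank for the caveola genes, with points for the edgeR estimate filled where the gene was called, and horizontal lines for the 95% interval, and with the other caveola genes and the clathrin and flotillin genes below them. The intervals of Cav1, Cavin3 and Ehd2 lie to the right of 1, and those of Cav2, Cavin1 and Cavin2 include 0.

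Per transcript length, Cav2 was the most abundant of the 6 genes at both sites, with 64.9 ± 16.7 FPKM in the footpad and 56.0 ± 2.47 FPKM in the flank (SD, n = 3 each). In the footpad it was followed by Cav1 at 49.2 ± 11.5 FPKM, Cavin1 at 47.7 ± 3.88, Cavin2 at 13.4 ± 4.64, Cavin3 at 10.2 ± 2.14 and Ehd2 at 6.40 ± 1.82 FPKM. The ranges over tumors overlapped between Cav2 and Cav1, between Cav1 and Cavin1 and between Cavin2 and Cavin3, so the order of those neighbours did not exceed their spread. In the flank the order of Cav1 and Cavin1 was exchanged, with Cavin1 at 35.2 ± 7.75, Cav1 at 10.8 ± 1.67, Cavin2 at 9.24 ± 2.40, Cavin3 at 2.89 ± 0.0127 and Ehd2 at 1.63 ± 0.694 FPKM. There the ranges of neighbours overlapped only between Cav1 and Cavin2.

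Within single tumors Cav2 was the highest and Ehd2 the lowest of the 6 by FPKM in all 6 tumors. Cav1 was the next after Cav2 in footpad replicates 1 and 3, came after Cavin1 in footpad replicate 2 and flank replicates 1 and 2, and came after Cavin1 and Cavin2 in flank replicate 3. As a share of the FPKM of both caveolins, Cav1 made up 49.6%, 31.7% and 49.1% in footpad tumors in replicate order, but 16.9%, 18.0% and 13.5% in flank tumors. The footpad tumor with the smallest share, replicate 2, thus stood above every flank tumor. Summed over the 6 genes, the FPKM were 167, 205 and 204 in the footpad tumors and 126, 109.9 and 111 in the flank tumors.

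**Figure D3:**
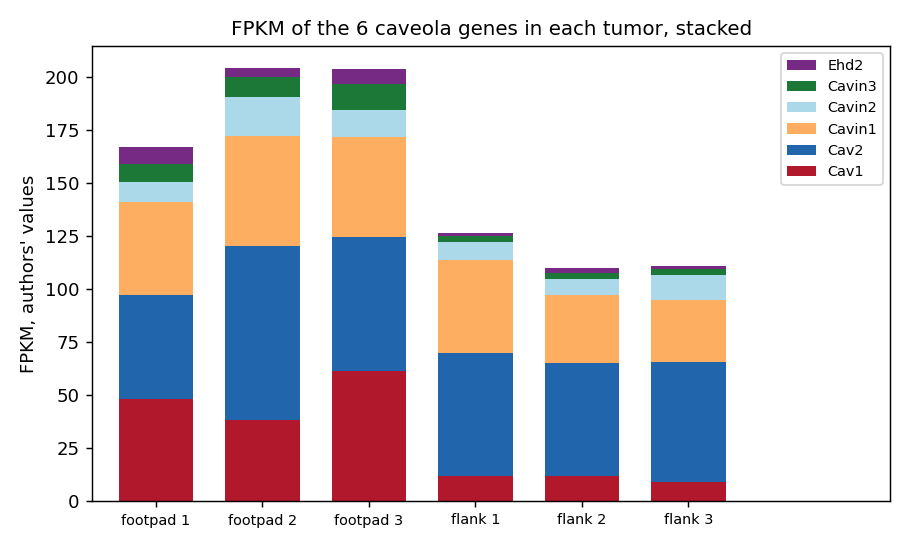
Summed FPKM of the 6 caveola genes in each tumor on a linear axis from 0, with the bar of each tumor divided by gene. The Cav1 segment takes 25.9% of the bar on average in the footpad and 9.32% in the flank, and the Cav2 segment 33.5% and 48.5%.

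The proportions of the members to Cav1 were compared within each tumor. Since Cav1 is the denominator of each ratio, the differences between sites largely restate the fold changes above and are not separate evidence. The ratio of Cav2 to Cav1 in CPM was between 1.10 and 2.36 in the footpad tumors and between 5.09 and 7.02 in the flank tumors, a difference in the mean log2 ratio of -2.01. The ratio of Cavin1 to Cav1 was between 0.977 and 1.75 in the footpad and between 3.58 and 4.74 in the flank, a difference of -1.73. For Cavin2 the mean log2 ratio to Cav1 was -1.62 ± 0.75 in the footpad and 0.06 ± 0.58 in the flank (SD, n = 3 each), a difference of -1.68. In each of these 3 ratios the sites did not overlap, and the two-sided exact permutation test gave p = 0.1, the smallest that 3 tumors against 3 allow, or 0.167 after Benjamini-Hochberg adjustment over the 5 ratios. With Cavin3 the mean log2 ratio to Cav1 was -3.56 ± 0.27 and -3.16 ± 0.23, a difference of -0.40 (exact permutation p = 0.2, adjusted 0.25). With Ehd2 it was -2.29 ± 0.25 and -2.12 ± 0.58, a difference of -0.16 (exact permutation p = 0.7, adjusted 0.7), which became 0.09 without flank replicate 2.

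**Figure D4:**
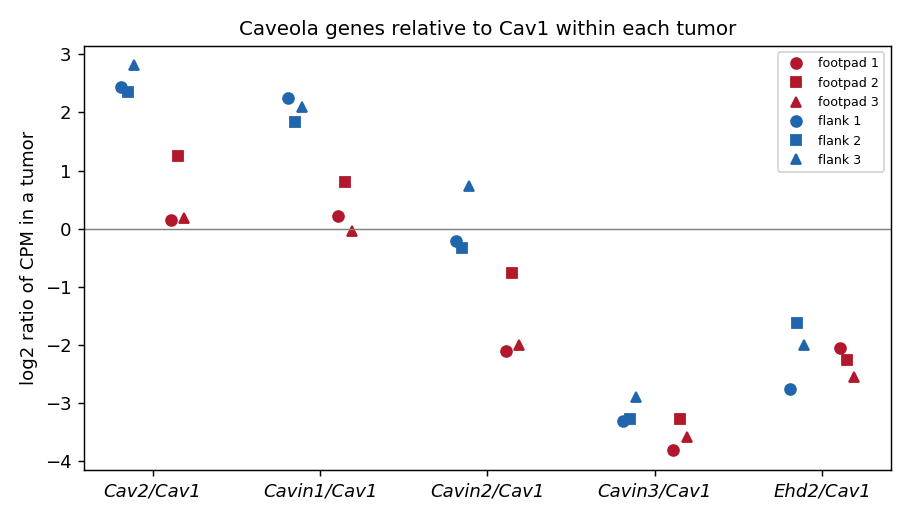
Log2 ratio of the CPM of Cav2, Cavin1, Cavin2, Cavin3 and Ehd2 to that of Cav1 in each tumor, with 1 point per tumor and the sites side by side, red for footpad and blue for flank. The ratios of Cav2, Cavin1 and Cavin2 sit lower in the footpad without overlap, and those of Cavin3 and Ehd2 overlap between the sites.

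Likeness between genes was measured as the root mean square difference between their log2 CPM over the 6 tumors after each gene was centred on its own mean, and it is given as a description. By this measure the closest pairs among the 6 genes were Cav2 with Cavin1 at 0.258, Cav2 with Cavin2 at 0.266, and Cav1 with Cavin3 at 0.287. Cav1 with Ehd2 stood at 0.370, and the neighbours Cav1 and Cav2 were the most unlike pair at 1.08. Among all genes tested, the 5 most like Cav1 were Hhex at 0.185, Clip3 at 0.189, Ccdc125 at 0.202, Prr5 at 0.222 and Cdh13 at 0.229. Of these only Cdh13, which encodes T-cadherin, was above 2 CPM on average in the footpad, with 17.6 CPM there and 4.79 CPM in the flank. The 5 genes most like Cavin1 were Nat9, Plekhb2, Arfgap3, Anxa7 and Nudt18, between 0.0563 and 0.0651, and their log2 fold changes lay between 0.34 and 0.53 with none under an adjusted p of 0.05 (edgeR).

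A list of 18 other genes of caveolae was examined in the same fit. Of the 17 that passed the filter, 2 rose and none fell (edgeR), and 9 had every footpad tumor above every flank tumor. Of all genes tested, 2.89% rose and 17.5% had every footpad tumor above every flank tumor. The list's median log2 fold change was 0.35. DESeq2 called 3 as higher, Nos3 being the additional gene. Plvap, which forms the diaphragm across the neck of endothelial caveolae, had 26.0, 20.1 and 26.1 CPM in footpad tumors against 13.4, 11.7 and 8.84 CPM in flank tumors, and rose by 1.09 on the log2 scale (adjusted p = 0.034, edgeR). Ptgis, the prostacyclin synthase that has been found with caveolin-1, stood at 2.51, 2.64 and 2.88 CPM in the footpad and 0.414, 0.804 and 0.272 CPM in the flank, and rose by 2.43 (adjusted p = 0.0339, edgeR).

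Of the 7 genes whose sites did not overlap but that were not called, Nos3, the endothelial nitric oxide synthase that caveolin-1 binds, had a log2 fold change of 1.54 (adjusted p = 0.0578, edgeR). Flna, the actin crosslinker that ties caveolae to stress fibres, stood between 1225 and 1336 CPM in the footpad and between 804 and 899 CPM in the flank, a log2 fold change of 0.60 (adjusted p = 0.0609, edgeR). Ehd1, Dnm2, Ror1, Bmpr2 and Trpc1 had log2 fold changes of 0.50, 0.35, 1.75, 0.24 and 0.64, with adjusted p between 0.087 and 0.273 (edgeR). The muscle members of the families were near the detection limit. Cavin4 stayed under 1 CPM in every tumor (log2 fold change 2.51 with a standard error of 1.15, adjusted p = 0.220, edgeR), and Cav3, which failed the filter, had 0, 63 and 0 counts in the footpad tumors and 6, 12 and 0 in the flank tumors, its highest value falling in the tumor with the most muscle RNA.

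For comparison with other routes of membrane uptake, 10 genes of the clathrin coat, its AP2 adaptor and the flotillins were examined. None was called in either direction by edgeR or DESeq2. Over all genes tested, edgeR called 2.89% higher and 0.872% lower, and DESeq2 called 6.71% higher. A list of 10 genes with none called is near those shares. By edgeR 4 of the 10 had an unadjusted p under 0.05, a count without a share over all genes beside it. The log2 fold changes of the 10 genes lay between -0.21 for Clta, a clathrin light chain, and 0.40 for Ap2a1, an adaptor subunit, with a median of 0.28. In 6 of them, Cltb, Cltc, Ap2a1, Ap2a2, Ap2b1 and Ap2m1, every footpad tumor lay above every flank tumor. The same held for 17.5% of all genes tested, for 3 of the 6 caveola members and for 9 of the 17 other caveola genes. Such separation was therefore not particular to the caveola genes.

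Markers of cell types that make caveolae also differed between the sites. For the counts of called markers below, edgeR called 2.89% of all genes tested higher and 0.872% lower. Endothelial markers summed to between 148 and 239.8 CPM in the footpad tumors and between 88.5 and 109 CPM in the flank tumors, with 3 of 10 called higher and Pecam1, the most abundant, between 40.1 and 68.8 CPM against between 22.9 and 25.4 CPM. Fibroblast markers summed to between 2063 and 2856 CPM against between 56.8 and 303 CPM, with 6 of 7 called higher and Col3a1 the most abundant. Mural and smooth muscle markers summed to between 163 and 224 CPM against between 64.9 and 101 CPM, with 3 of the 7 tested called higher. Rgs5, the most abundant, was not called, and its sites overlapped at between 29.8 and 79.4 CPM against between 23.3 and 54.4 CPM. Of the markers tested in these lists only Cldn5, an endothelial one, had a negative log2 fold change, -0.52, with overlapping sites. The part of these cells in the levels of Cav1, Cavin3 and Ehd2 was not tested.

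Adipocytes are also rich in caveolae, and their markers, Plin4 the most abundant, summed to between 0.314 and 4.78 CPM in the footpad and between 0.671 and 9.31 CPM in the flank, with none of the 3 tested called. Macrophage markers, led by Lyz2, summed to between 204 and 231 CPM against between 26.7 and 134 CPM, with 1 of 5 called higher. Melanocyte markers, led by Tyrp1, summed to between 9802 and 17943 CPM in the footpad and between 14350 and 24942 CPM in the flank, with none of 7 called. With 2.89% of all genes called higher and 0.872% lower, short lists with none called are near the shares over all genes. The most abundant skeletal muscle and keratinocyte markers were Ttn and Krt10. No marker of any list was at 3 counts or fewer in every tumor of a site.

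**Figure D5:**
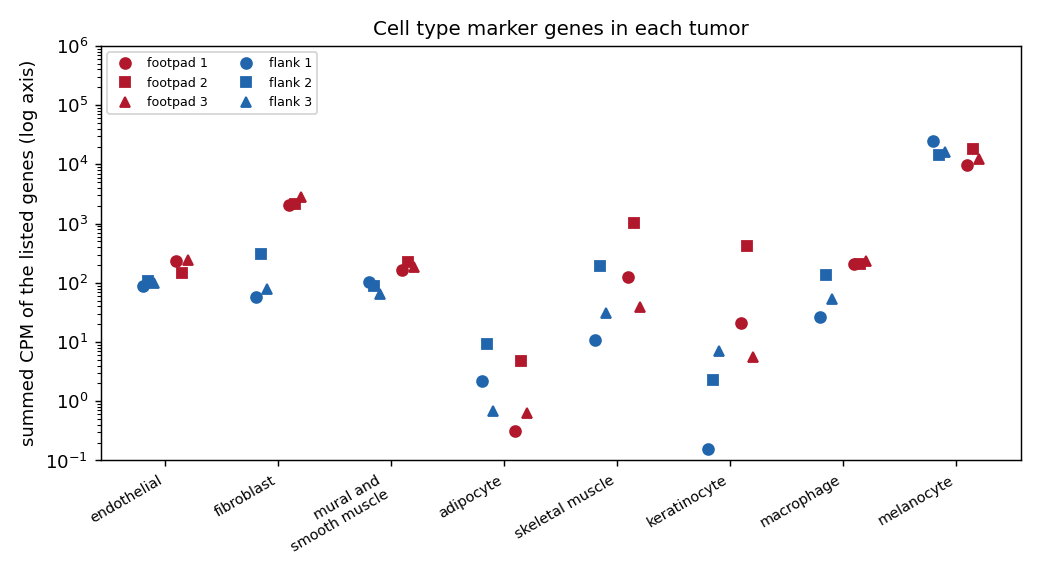
Summed CPM of each list of cell type markers in each tumor on a log axis, with 1 point per tumor. The endothelial, fibroblast, mural and macrophage sums are higher in all 3 footpad tumors, and the melanocyte sums of the sites overlap.

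The order of tumors within a site, read after the values were seen, differed among the members. Cav2 followed the melanocyte sum at both sites, with footpad replicate 2 the highest and replicate 1 the lowest, and flank replicate 1 the highest and replicate 2 the lowest. In the footpad, Cav2 had the order of the mural and adipocyte sums as well. Cav1 followed the endothelial sum in the footpad, where replicate 3 was the highest and replicate 2 the lowest, and not in the flank. The macrophage sum had the same footpad order as Cav1, and the mural sum had its flank order. Cavin3 had the endothelial order in the footpad and the melanocyte order in the flank. Ehd2 had the endothelial order in the flank, shared there with the fibroblast and macrophage sums, and not in the footpad. Cavin2 had the footpad order of Cav2 but not its flank order. Cavin1 had the flank order of Cav1 but not its footpad order. More than 1 list thus matched each gene. With 3 tumors a site these orders are descriptions, and their part in the results was not tested.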

How the data were processed

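RNA from 3 footpad and 3 flank tumors was analysed, 1 library each, with site and number from the labels. The authors trimmed reads with Trimmomatic and aligned them to mm10 with HISAT2 2.1.0 after FastQC 0.11.7, and deposited read counts per gene and FPKM, which they scaled for length and depth. The counting program, its use of strand and its filter are not given in the sources used here. The kit kept strand, and Cav1 with Cav2, Cavin2 and Cavin3 have annotated genes on the opposite strand, so reads from these could have been counted with them. The gene opposite Cavin2 had 0 deposited counts in total. Those opposite Cav1, Cav2 and Cavin3 had no deposited counts to check. Labels give Foxn1-/- hosts, and the study's text describes grafts of this line in Foxn1-null as well as C57BL/6J hosts without naming the host of the sequenced tumors. Labels speak of excised tumors and the methods of isolated tumor cells. The methods describe implantation at the sites in the same mice, without saying whether equal numbers mark 1 mouse. The main fit took the tumors as unpaired. Its p-values measure the spread between these tumors, which may not come from separate mice.

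The count table was fitted with edgeR 4.0.16 under R 4.3.3 (TMM scaling, filterByExpr, glmQLFit, glmQLFTest and Benjamini-Hochberg adjustment over 17210 genes), and the depth was 46529649 to 66364366 reads per tumor. Calls needed a fold of at least 2 and an adjusted p under 0.05. Standard errors were taken as the log2 fold change over the square root of F, and 95% intervals from the t quantile with the degrees of freedom of the fit. A floor of 3 counts per tumor covers counting error only. Log2 CPM used a prior count of 1.

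The genes named are the 6 members, the called and non-overlapping genes of 2 lists and those that failed the filter, the 5 genes most like Cav1 and Cavin1, and the most abundant marker of each list. Other list genes named with values are Clta, as the lower end of its list, and Cavin4, named after its values were seen. The members and lists were chosen with earlier results of these data known. Sequences and starts are from RefSeq on GRCm38.p6, and 5 of 6 members had an upstream window. Alternatives were DESeq2 1.42.0, no filter, a filter of 10 counts in every tumor, upper-quartile scaling, limma 3.58.1 on log2(FPKM + 1) and log2(FPKM + 0.1), the replicate number as a block, removal of hemoglobin and 7SL genes, no minimum fold, FPKM ratios, and leaving out each tumor. The fits were tested on simulated data.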

Additional observations from a re-analysis of the deposited data

How the results depend on the processing

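Apart from omitted tumors, 101 of 107 values under the other settings were labelled unchanged, and none reversed. An unchanged fold change kept its direction and its side of the threshold, and an unchanged ratio kept its direction. A count of called genes could differ slightly, so 3 other caveola genes called by DESeq2, against 2, were labelled unchanged. Many of the counts could hardly move, since those of the clathrin and flotillin genes and of genes called lower were 0 in every fit. With the replicate block, 0 of the 6 members and 0 of the other caveola genes were called, as were 0 of all 17210 genes (1378 higher and 413 lower at an unadjusted p under 0.05 with a fold of 2 or more). The log2 fold changes with the block were 2.19 for Cav1 (adjusted p = 0.0552), 1.79 for Cavin3 (0.0711) and 2.03 for Ehd2 (0.0844, edgeR). Deviations of same-numbered tumors correlated between -0.115 and 0.0544, and 0 of 6 tumors correlated best with their own number. From 3 tumors a site, these correlations cannot show whether equal numbers mark 1 mouse. Limma on log2(FPKM + 1) called 0 of the other caveola genes, against 2. Leaving out 1 tumor at a time, 84 of 102 values were unchanged by the same labels. The count of members called ranged from 0 to 3, that of other caveola genes from 0 to 3, and the log2 fold changes from 2.04 to 2.39 for Cav1 (adjusted p 0.0149 to 0.0558), 1.64 to 1.87 for Cavin3 (0.0194 to 0.0826) and 1.82 to 2.30 for Ehd2 (0.0194 to 0.0887, edgeR). Calls over the whole table then ranged from 0 higher and 0 lower without footpad replicate 3 to 639 and 197 without footpad replicate 2. The log2 ratio of Ehd2 to Cav1 ranged from -0.48 to 0.0888 and reversed only without flank replicate 2. The causes were not tested. With 3 tumors a site, an exact permutation test cannot go below 0.1.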
